A study of Homo sapiens with 6 samples.

Results

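The day 3 stage of neural crest induction was set against the stages on either side of it, to describe what its transcriptome held that neither the starting cells nor the end product did. Neural crest cells arise at the edge of the embryo's neural plate, migrate, and become sensory and autonomic neurons, Schwann cells, melanocytes and facial skeleton. The cells were WA01 (H1), a widely used human embryonic stem cell line, here wildtype, and 6 libraries of poly-adenylated RNA form 3 groups of 2. The groups are ES cells on day 0, preNC cells (a pre-neural crest intermediate) on day 3 and NC cells on day 5. The labels carry 1 protocol for all 3 groups, also for day 0: plating at 20000 cells per cm2 on Matrigel with 3 µM CHIR99021, a GSK3 inhibitor that activates WNT/beta-catenin signalling, and 10 µM of the ROCK inhibitor Y-27632 at the start.

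For each gene the measure was the day 3 contrast, that is log2(FPKM + 1) on day 3 minus the mean of the same value on day 0 and day 5. FPKM is the fragment count of a gene corrected for transcript length and for sequencing depth. All 23284 genes of the deposited table had the 3 values needed. The table gives 1 FPKM per gene and group, with both libraries of a group combined, so the spread between replicates and the depth per library are unknown. Nothing in the labels says that the libraries of a group came from separate cultures, so the deposited p-values may measure technical spread alone. A gene was called above (or below) both flanking stages where the q in the authors' deposited table was below 0.05 in both steps, day 0 to day 3 and day 3 to day 5, with day 3 the higher (or lower) in both. The 2 steps share the day 3 libraries, so their q values are not independent. Where a value is followed by ±, it is the contrast of log2 FPKM without the added 1, with the standard error implied by the deposited test statistics. Positions refer to hg19 unless another build is named.

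Some background on the pathways below is useful. WNT signalling stabilises beta-catenin, which acts with TCF/LEF factors on target genes and moves neural tissue towards posterior and border identities. Retinoic acid is made by ALDH1A enzymes, read by nuclear RAR receptors and destroyed by CYP26 enzymes, and patterns the hindbrain and its neighbours. BMP signalling induces ID genes and is held down in the neural plate by secreted antagonists. FGF signalling through ERK induces its own feedback inhibitors and the ETV factors, and growth factors induce immediate early genes such as FOS and EGR1. Neural crest forms where intermediate BMP, WNT and FGF signals meet.

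Of 15564 genes tested in both steps, 276 were called above both flanking stages (1.77%) and 175 below both (1.12%). Genes above both numbered 261 protein-coding genes and 3 long noncoding RNAs among those matched by symbol to RefSeq, and those below numbered 164 and 4. The median contrast of the 276 genes was 1.25, with a range of 0.23 to 9.82, and that of the 175 genes was -1.03, with a range of -3.55 to -0.21. For scale, 12183 genes with FPKM values no lower than 1 in any group had a median contrast of 0.05 and a 5th to 95th percentile range of -0.59 to 0.65. An FPKM of at least 5 was reached at their highest stage by 179 of the 276 genes and by 91 of the 175. Of the 276 genes 25 stayed under an FPKM of 1 even on day 3.

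The preNC label was checked against marker genes. All 8 markers of the neural plate border and pre-neural crest were called higher on day 3 than on day 0, their summed FPKM going from 38.0 to 82.0 and then to 199 on day 5. Of 6 stem cell markers 5 were called lower on day 3 than on day 0, and their sum went from 2310 to 721 and 476, of which LIN28A gave 555 on day 3. The 8 neural crest markers summed to 31.2, 23.8 and 173. The lower day 3 sum was not shared by all of them. Between day 0 and day 3, 4 were called higher and 2 lower, FOXD3 (17.9 to 0.876) and ETS1 (7.27 to 1.11). The summed FPKM of 6 markers of neural tube progenitors was highest in between, at 39.8, 126 and 29.9, with DBX1 giving 81.9 of the day 3 sum. Not all 6 had this shape, and 3 were called above both stages. SOX3 was highest on day 0 (37.0, 17.6 and 10.1) and PAX6 on day 5 (0.393, 1.86 and 15.3). Neuronal markers summed to 206, 323 and 146, mostly TUBB3. The 4 to 6 defining markers each of mesendoderm, endothelium, muscle, gut endoderm and trophoblast summed to between 0.127 and 3.86 on day 3, and MSGN1, FOXA2 and CGA were listed at 0. Longer lists of the same types summed on day 3 to 25.2 for endothelium, most of it the angiopoietin receptor TEK (12.2, 21.5 and 15.3), 6.47 for trophoblast and amnion and 5.95 for mesendoderm. These are bulk samples, so a lower value from fewer cells of a type and one from less RNA per cell cannot be told apart.

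Transcription factors of neural progenitors were prominent among the highest contrasts, 5 of them among the 15 highest outside small RNA genes. FOXB1 (chromosome 15, 60296421 to 60298142), the forkhead factor named in the series title, had an FPKM of 3.77 in ES cells, 73.6 in preNC cells and 4.08 in NC cells (below, 3 values in a row are always day 0, day 3 and day 5). Its contrast was 3.92 (4.23 ± 0.22), and day 5 was back near day 0 (the authors' deposited table gives 0.913 as the q between them). DBX1 (chromosome 11, 20177760 to 20181870), a homeobox gene of interneuron progenitors in the neural tube, went from 0.282 to 81.9 and back to 1.26. That was a 291-fold rise followed by a 64.8-fold fall, with a contrast of 5.60 (7.10 ± 0.32). SOX21, a SOXB2 factor of neural progenitors, stood at 8.38, 91.0 and 5.57, and SOX1, an early marker of neural plate, at 0.985, 19.2 and 1.46. For both, day 5 was not called different from day 0 (q values of 0.217 and 0.371, from the authors' deposited table). HES3, a bHLH repressor of neural progenitors, took another course, from 71.3 to 235 and then 120-fold down to 1.95, well below where it began.

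**Figure D1:**
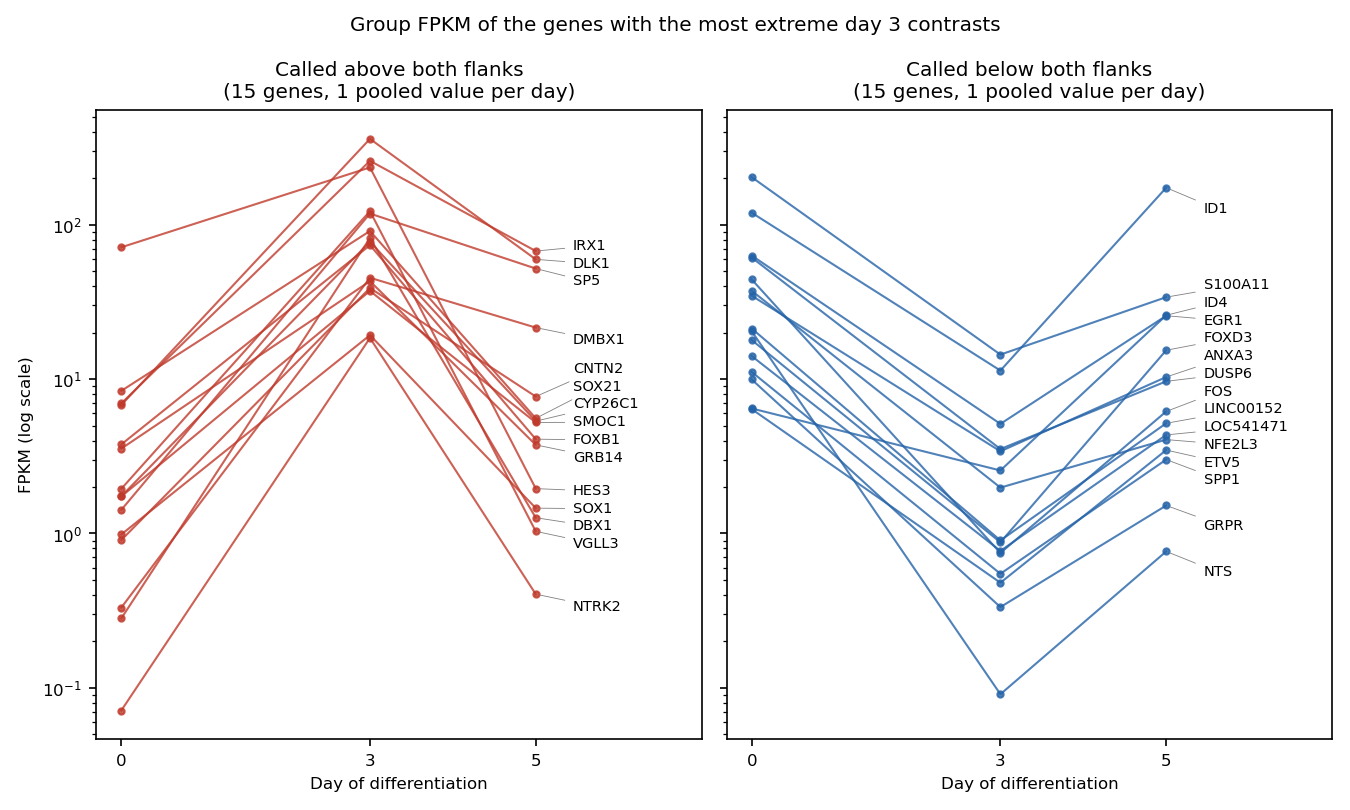
FPKM (log scale) of each group against the day of differentiation for the 15 called genes with the highest and the 15 with the lowest contrast whose largest FPKM was at least 5, small RNA genes left out. Each line is 1 gene and each point 1 pooled value with no error bar. FOXB1 and GRB14 return close to their day 0 level, as does FOXD3 on the right, and IRX1, DLK1 and SP5 stay well above theirs on day 5. SOX21 ends below its day 0 level (8.38 and 5.57) and ID1 above (119 and 174), neither called different.

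Over the whole list of neural plate and tube progenitor transcription factors, 8 of 22 tested members were above both stages and 1 was below, and the median contrast was 1.16 against 0.03 for all tested genes. LHX5, a LIM homeobox gene of the forebrain and interneurons, stood at 7.56, 37.7 and 10.8. The POU factor POU3F1 stood at 19.8, 60.9 and 15.6, and OLIG3, a bHLH factor of dorsal progenitors, at 0.876, 4.61 and 0.897. The member below both was SIX3, a factor of the anterior forebrain, at 2.40, 0.731 and 3.44. Among midbrain and isthmus genes 4 of 15 tested members were above both and none below, with a median contrast of 0.86. PAX2, a paired-box factor of the midbrain-hindbrain boundary, went from 0.0383 to 11.02 and 3.10. GBX2, which sets the anterior limit of the hindbrain, went from 0.635 to 8.22 and 0.560. DMBX1 stood at 0.331, 45.3 and 21.5, and FGF8, the signal of the isthmus, at 1.039, 4.87 and 0.732. WNT1 and LMX1A, midbrain genes too, did not share this shape. WNT1 went on rising after day 3, from 0.496 to 23.1 and 301, and LMX1A from 0.101 to 1.91 and 46.8.

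Of 20 tested neural plate border genes 4 were above both stages and none below. They include Iroquois homeobox genes, which pattern the neural plate. IRX1 (chromosome 5, 3596168 to 3601517) stood at 6.95, 259 and 67.5, with a contrast of 3.48 (3.58 ± 0.22). IRX2 on the same chromosome stood at 46.8, 126 and 48.9, so it returned to its starting level, whereas IRX5 on chromosome 16 went from 0.870 to 16.96 and 7.66. The median contrast of the list was 0.06, near that of all genes. PAX3 (0.253, 3.36 and 39.9) and MSX1 (0.503, 4.41 and 73.2), listed border genes too, rose in both steps. The call of DMBX1 was lost when p was recomputed from the test statistic under a normal distribution, and with a q threshold of 0.01.

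Of 17 tested retinoic acid genes 3 were above both stages and 2 below, with a median contrast of 0.20. Both tested CYP26 enzymes, which degrade retinoic acid, were above both stages. CYP26C1 (chromosome 10, 94821021 to 94828454) went from 1.74 to 77.5 and 5.34, with a contrast of 4.24 (4.67 ± 0.39). CYP26A1, which starts 4777 bases further along the same chromosome, went from 20.8 to 59.9 and then 16.4-fold down to 3.65. The receptor RARB (chromosome 3, 25469754 to 25639422) went from 0.148 to 10.45 and 1.02, with a contrast of 2.91 (4.75 ± 0.52). Of the enzymes that make retinoic acid, ALDH1A3 stood at 1.67, 0.399 and 3.19, and ALDH1A1 at 0.549, 0.134 and 5.25, both below both stages. The call of ALDH1A1 was lost under the normal p and with a q threshold of 0.01. The receptors RARA (4.93, 5.98 and 5.25) and RXRA (8.25, 16.5 and 11.8) were not called in both steps.

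RARB is a known direct target of retinoic acid receptors through a paired element in its promoter, a direct repeat with a spacer of 5 bases (DR5). The stretch is shown because RARB was the one called gene whose promoter in the RefSeq table held this motif. It lies 53 to 37 bases before the start on the plus strand, is printed in capitals, and comes from chr3:25428180-25428256 of GRCh38.p14.
RARB: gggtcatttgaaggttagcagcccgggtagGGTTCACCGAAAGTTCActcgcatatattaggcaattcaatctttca
The motif, searched on both strands, was in 22 of 27305 promoters (0.0806%), each running from 250 bases before the start to 50 after it. A match is a sequence description, and binding was not measured.

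WNT pathway genes above both stages were found among receptors, ligands and targets. Among receptors and the R-spondin axis, 5 of 22 tested members were above both and none below, with a median contrast of 0.57. The Frizzled receptors FZD2 (14.5, 56.7 and 25.6), FZD8 (5.43, 13.9 and 4.84) and FZD9 (2.49, 6.15 and 3.09) were joined by LGR4, a receptor of R-spondins, at 31.9, 74.8 and 29.9. The call of FZD9 was lost with a q threshold of 0.01. ROR2, a receptor of noncanonical WNT signals, went from 1.63 to 31.2 and 16.4. Among 14 ligands and carriers 2 were above both: WNT4 went from 0.862 to 13.2 and 5.98, and WNT8A from 0.0770 to 5.96 and 0.533. Of 10 secreted antagonists 1 was above both, FRZB (4.56, 20.3 and 10.8), a call lost under the normal p and the stricter q. SFRP4 also peaked, at 0.0172, 6.89 and 0.294, but was not called in the first step, its q there being 0.0962 per the authors' deposited table.

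Of 18 tested WNT targets 3 were above both stages and 1 below, with a median contrast of 0.65. SP5 (chromosome 2, 171571857 to 171574498), a zinc finger factor induced by beta-catenin, went from 1.42 to 118 and 52.0, with a contrast of 3.39 (3.78 ± 0.24). TCF7, a TCF/LEF factor, stood at 3.00, 6.32 and 2.93, and the mesoderm factor T at 0.134, 0.777 and 0.0566, under an FPKM of 1 throughout. The call of TCF7 was lost under the normal p and the stricter q. Other targets did not turn back: AXIN2 went from 8.76 to 26.2 and 70.9, LEF1 from 0.914 to 14.4 and 25.4, and APCDD1 from 1.91 to 39.5 and 171. TNFRSF19 (0.889, 24.9 and 22.4) was nearly as high on day 5 as on day 3, with no call between them. Measured against the nearer flanking stage (the higher for positive contrasts, the lower for negative ones) instead of the mean of both, the list median was -0.14.

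The TCF/LEF sequence CTTTGAT, searched on both strands, was in the RefSeq promoters of 3 genes above both stages, SP5, IRX1 and LPHN2, and of 1 below, IL17RD. It was in 721 of 27305 promoters (2.64%). The stretches of SP5 and IRX1 are shown as those of the 2 genes with the higher contrasts. Both are on the plus strand of GRCh38.p14, from chr2:170715198-170715264 and chr5:3595780-3595831, with the match in capitals.
SP5: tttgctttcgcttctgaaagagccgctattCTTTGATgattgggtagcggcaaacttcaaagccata
IRX1: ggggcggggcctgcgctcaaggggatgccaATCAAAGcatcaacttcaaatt
In SP5 the match lies 109 to 103 bases before the start, and in IRX1 it lies 22 to 16 bases before the start and reads on the opposite strand.

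The largest contrast of a gene longer than a small RNA was that of VGLL3 (chromosome 3, 86987123 to 87040257), a cofactor of the TEAD factors through which the Hippo pathway acts. It went from 1.95 to 122 and then 119-fold down to 1.03, with a contrast of 5.66 (6.43 ± 0.58). DLK1 (chromosome 14, 101193202 to 101201467), an imprinted membrane protein related to Notch ligands, reached the highest level of any gene in the plot of courses by day, at 6.79, 359 and 59.6. The noncoding RNA MEG3, which lies 90977 bases from it in the same imprinted region, had the same order of values at a lower level (0.113, 2.32 and 0.612). In the Notch list 3 of 21 tested members were above both, the other two being the ligand DLL1 (1.96, 12.1 and 6.66) and the fringe enzyme MFNG (1.45, 3.31 and 1.18), and the repressor HEY2 was below (3.99, 0.313 and 0.964). Of these 4 calls DLK1 alone held under the normal p and the stricter q.

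Receptors and surface molecules of neural cells were also among the genes above both. NTRK2 (chromosome 9, 87283466 to 87638505), the receptor of the neurotrophin BDNF, was almost silent at the flanking stages, at 0.0714 and 0.404, and reached 18.5 on day 3, with a contrast of 3.99 (6.76 ± 0.54). NTF3, a neurotrophin, stood at 1.36, 7.65 and 2.45, and RET, the receptor of the GDNF family, at 2.83, 8.79 and 0.469. They were 3 of 16 tested members of the neurotrophic list, with none below and a median contrast of 0.01. CNTN2, an axonal adhesion molecule, went from 0.906 to 38.9 and 7.70, and STMN2, a microtubule regulator of growing axons, from 2.60 to 27.4 and 7.94. The list of proneural and neurogenesis genes nevertheless counted 3 above and 2 below of 20 tested, with DCX the third above and ELAVL2 (7.69, 3.45 and 6.43) and INSM1 (1.23, 0.380 and 1.91) below. The calls of DCX and ELAVL2 were lost under both of those settings, and that of INSM1 with the stricter q.

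The families in this paragraph were chosen after their values had been seen. Of 45 tested axon guidance genes (semaphorins, plexins, netrins, repulsive guidance molecules, SLITs and their receptors) 8 were above both stages and 5 below, with a median contrast of 0.14. RGMA went from 25.97 to 123.2 and 24.02, RGMB from 5.96 to 63.6 and 20.7, SEMA5B from 10.4 to 34.6 and 7.77, and SEMA5A from 0.976 to 7.001 and 1.40. The repulsive cue SLIT2 ran the other way, at 1.55, 0.676 and 6.05. Of 20 ephrins and Eph receptors 3 were above both and none below, among them EFNB1 at 2.96, 59.4 and 34.0. The Hedgehog receptor PTCH1 was also above both, at 6.42, 13.2 and 6.91. The calls of SLIT2, EFNB1 and PTCH1 were lost under the normal p. Among single genes, the kinase PKDCC stood at 48.3, 284 and 37.8, the LIM protein LMO1 at 1.54, 42.8 and 10.4, and the adaptor GRB14 at 3.54, 43.1 and 3.75. SMOC1, a secreted calcium-binding protein, stood at 1.74, 37.2 and 5.23. The activin and BMP antagonist FST, a listed gene, stood at 11.01, 183 and 75.04.

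The lowest contrast among called genes belonged to ID1 (chromosome 20, 30193086 to 30194317), an inhibitor of bHLH factors induced by BMP. It stood at 119 on day 0, 11.3 on day 3 and 174 on day 5, a 10.5-fold fall and a 15.3-fold rise, with a contrast of -3.55 (-3.66 ± 0.36). Its q between the flanking stages was 0.156, taken from the authors' deposited table. ID4 stood at 6.45, 2.56 and 25.9, and BAMBI, a decoy receptor induced by BMP, at 12.2, 1.33 and 4.07. These 3 of 10 tested BMP targets were below both stages and none was above, with a median contrast of -0.75. ID2 was highest on day 3, at 67.6, 231 and 186. ID3 was lowest on day 3 like ID1, at 180, 160 and 255. Neither ID2 nor ID3 was called in both steps. No BMP ligand or receptor of 13 tested was called above or below both stages, against 1.77% and 1.12% of all tested genes. The ligands BMP4 (2.90, 1.69 and 27.5) and BMP2 (2.16, 3.27 and 41.4) were low until day 3. Of 12 BMP antagonists FST was above both and FSTL1 (132, 71.4 and 133) below, the latter call being lost under the normal p and the stricter q.

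**Figure D2:**
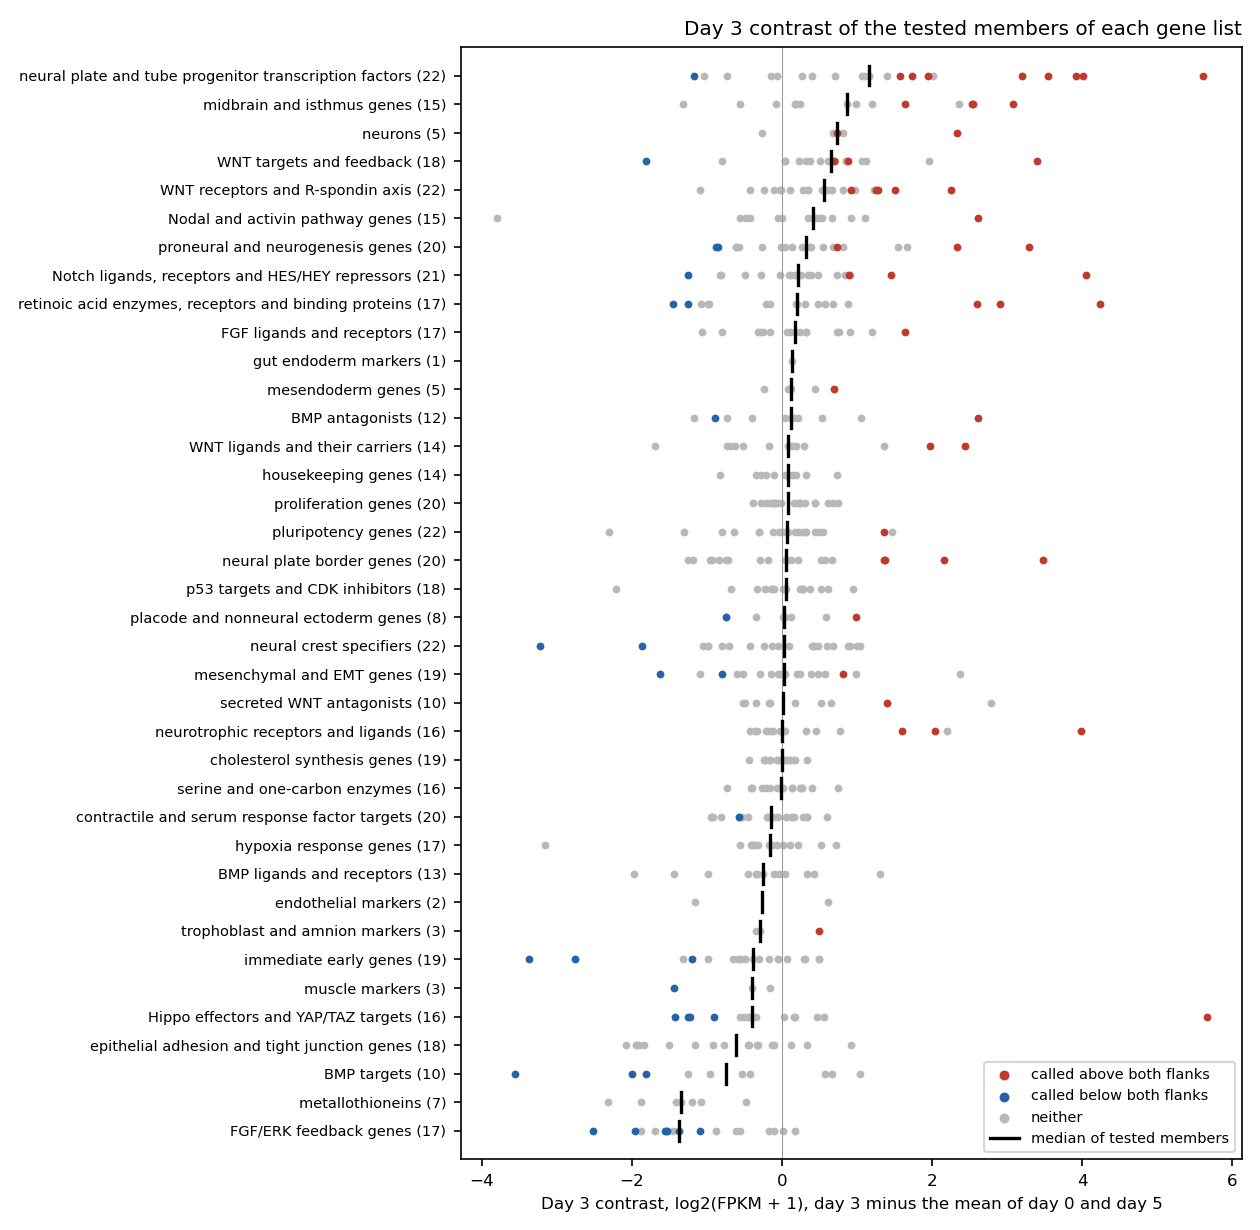
Day 3 contrast in log2(FPKM + 1) of the tested members of each of 38 gene lists, ordered by the median contrast, with the number of tested members in brackets. Red points are genes called above both flanking stages, blue points below both and grey points neither, and the black bar is the median of the tested members, not an error. FGF/ERK feedback genes have the lowest median, at -1.37, and progenitor transcription factors the highest, at 1.16.

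FGF/ERK feedback genes had the lowest list median, -1.37, with 6 of 17 tested members below both stages and none above. DUSP6 (chromosome 12, 89741837 to 89746296), a phosphatase of ERK, fell from 61.2 to 3.52 and recovered in part to 9.67, with a contrast of -2.51 (-2.79 ± 0.42). The phosphatase DUSP4 stood at 4.46, 1.37 and 3.69, and the receptor antagonist IL17RD at 7.77, 2.09 and 6.32. Of the ETS factors downstream of ERK, ETV5 stood at 6.39, 0.480 and 3.47 and ETV1 at 13.9, 3.63 and 11.5, while ETV4 fell from 50.3 to 3.56 and remained at 2.42. SPRY4, an inhibitor of the same pathway, also stayed down, at 23.9, 1.87 and 2.44. The sixth member below both, the early response gene IER3 (47.2, 9.73 and 19.1), lies on a haplotype contig and lost its call under the normal p and the stricter q. Measured against the nearer flanking stage the list median kept its sign. FGF8 was the only 1 of 17 tested FGF ligands and receptors above both, and none was below.

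Among immediate early genes 3 of 19 tested members were below both stages and none above, with a median contrast of -0.39, and 10 of the 19 had their lowest FPKM on day 3, as did 3240 of all 15564 tested genes (20.8%). FOS (chromosome 14, 75745481 to 75748937) stood at 44.1, 0.748 and 6.17, with a contrast of -3.36 (-4.46 ± 0.47). EGR1 (chromosome 5, 137801181 to 137805004), a zinc finger factor, stood at 63.0, 5.12 and 25.7, with a contrast of -2.76 (-2.97 ± 0.35). ATF3 stood at 14.6, 7.39 and 22.6, a call lost under the normal p and the stricter q. Growth factors induce FOS and EGR1 through serum response elements, named CArG boxes. The EGR1 stretch is shown because it held 2 CArG matches, printed in capitals, at 105 to 96 and 83 to 74 bases before the start, on the plus strand of GRCh38.p14 at chr5:138465344-138465435.
EGR1: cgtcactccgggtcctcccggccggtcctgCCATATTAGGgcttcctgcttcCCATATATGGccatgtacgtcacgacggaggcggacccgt
The motif, searched on both strands, was in 351 of 27305 promoters (1.29%), among them those of 6 genes below both stages (ANO5, ATXN1, EGR1, IGFBP2, PRUNE2 and SSPN) and 2 above (HES3 and TCF7). Listed genes of the contractile apparatus and other serum response factor targets counted 1 below both of 20 tested, LMOD1, and none above.

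Among neural crest specifiers 2 of 22 tested members were below both stages and none above, with a median contrast of 0.02. FOXD3 (chromosome 1, 63788730 to 63790797), a forkhead factor of both pluripotent cells and neural crest, stood at 17.9, 0.876 and 15.4. It thus fell 20.4-fold and rose 17.5-fold, with a contrast of -3.23 (-4.24 ± 0.35) and a q between the flanking stages of 0.736, taken from the authors' deposited table. ETS1 (chromosome 11, 128328656 to 128457453), a factor of cranial crest, stood at 7.27, 1.11 and 6.14, also with no call between the flanking stages. FOXB1 and FOXD3, both forkhead genes, thus had opposite courses with flanking levels that were not called different. Other specifiers rose in both steps, NR2F1 from 0.234 to 3.89 and 74.8 and SNAI2 from 0.628 to 4.18 and 8.24.

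Of 16 tested members of the Hippo list 4 were below both stages, the reverse of VGLL3. They were the coactivator YAP1 (35.6, 21.7 and 48.8) and its targets CTGF (66.3, 30.1 and 77.2), CYR61 (92.0, 20.3 and 34.0) and CRIM1 (6.01, 2.51 and 8.91). The list median was -0.40. The calls of YAP1 and CYR61 were lost under the normal p and the stricter q, and those of CTGF and CRIM1 held. Genes of matrix and membrane were also below both. COL1A1, a fibrillar collagen chain, stood at 34.2, 7.74 and 19.8, and 6 of 32 tested collagen genes were below both and 2 above, a family added after the values had been seen. Of these 8 calls, those of COL1A1 and COL23A1 held under the normal p. The calcium-binding protein S100A11 stood at 203, 14.4 and 33.9 and the annexin ANXA3 at 34.6, 3.41 and 10.3. The desmosomal plaque gene DSP (15.1, 1.61 and 4.76) and the secreted SPP1 (11.1, 0.548 and 3.01) also recovered only in part. The neuropeptide NTS, the lowest on day 3 of the genes with extreme contrasts, stood at 20.4, 0.0910 and 0.765. The calls of S100A11 and NTS were lost with a q threshold of 0.01. The remaining genes with extreme low contrasts were the transcription factor NFE2L3 (37.3, 1.98 and 4.05), the bombesin receptor GRPR (9.94, 0.334 and 1.52) and the noncoding RNAs LINC00152 (21.2, 0.901 and 5.17) and LOC541471 (14.1, 0.771 and 4.35). The last 2 are related loci on chromosome 2 that may share reads, so their separate values are uncertain, and the call of NFE2L3 was lost under the normal p and the stricter q.

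A large contrast did not by itself place day 3 outside both stages, and the ends of the ranking differed in this. Among 10321 tested genes at an FPKM of at least 5, small RNA genes left out, the 200 highest contrasts held 131 genes that rose and then fell (65.5%) and 50 that rose with no call in the next step (25.0%). The 200 lowest held 62 that fell and then rose (31.0%) and 92 that fell with no call in the next step (46.0%). Among the 50 at each end the counts were 40 and 21. Some genes that rose with no call in the next step were named after their values were seen. They included the homeobox gene MEIS2 (0.211, 37.2 and 26.5) and ZEB2 (0.434, 24.97 and 16.6), a repressor of epithelial genes. Both had a lower FPKM on day 5 than on day 3, so the missing call does not show that their level was kept. On the low side stood the Nodal co-receptor TDGF1 (345, 0.573 and 0.389), the peptide hormone ADM (138, 1.21 and 1.80) and NANOG (40.8, 0.659 and 0.615), with no call between day 3 and day 5.

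**Figure D3:**
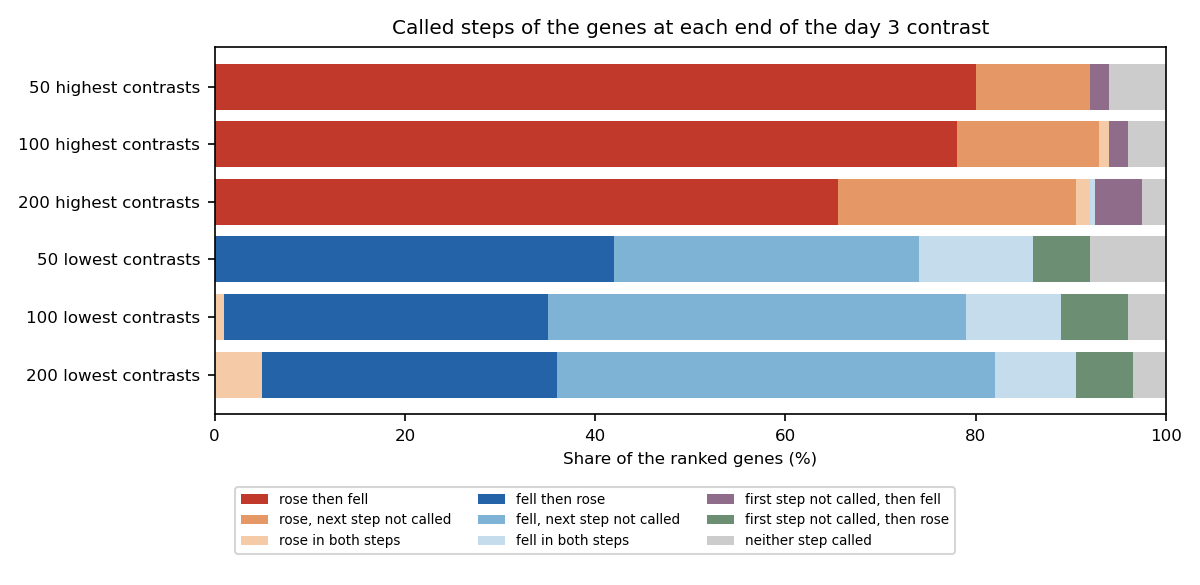
Share of genes, in percent, by their called steps among the 50, 100 and 200 highest and lowest contrasts at an FPKM of at least 5. Red marks genes that rose and then fell and dark blue those that fell and then rose, 65.5% and 31.0% of the 200 genes at the respective ends.

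Several lists had no member above or below both stages. Over all tested genes 1.77% were above both and 1.12% below, so the absence does not set lists this short apart from other genes. Lists without such a member include the metallothioneins, of which 7 were tested, with a median contrast of -1.34 and the highest values on day 0. MT1G stood at 391, 11.7 and 4.58 and MT2A at 192, 19.7 and 14.8. Epithelial adhesion genes were alike, with 18 tested and a median of -0.61, CDH3 standing at 47.4, 1.62 and 1.10. Against the nearer flanking stage both medians turned positive. Proliferation genes (20 tested, median 0.08), cholesterol synthesis genes (19, median -0.00), enzymes of serine and one-carbon metabolism (16, median -0.01), p53 targets and CDK inhibitors (18, median 0.05), hypoxia genes (17, median -0.16) and housekeeping genes (14, median 0.08) had no such gene either. Pluripotency genes (22 tested) had a median of 0.06.

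Day 5 was also compared with day 0, a comparison that took no part in the calls but shares its libraries with them. Of 253 genes above both stages that were tested in it, 67 were higher on day 5 (26.5%), 16 lower (6.32%) and 170 not called (67.2%). Of the 175 genes below both, 15 were higher (8.57%), 39 lower (22.3%) and 121 not called (69.1%). Over the 15375 genes tested in all 3 comparisons, 12.2% were higher and 13.8% lower. IRX1, DLK1 and SP5 were among the 67 genes left higher on day 5, and HES3 and CYP26A1 among the 16 left lower. FOS, EGR1 and DUSP6 were among the 39 genes that had not regained their day 0 level, and ID4 was among the 15 that ended above it. A missing call between the flanking stages does not show that they were equal.

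**Figure D4:**
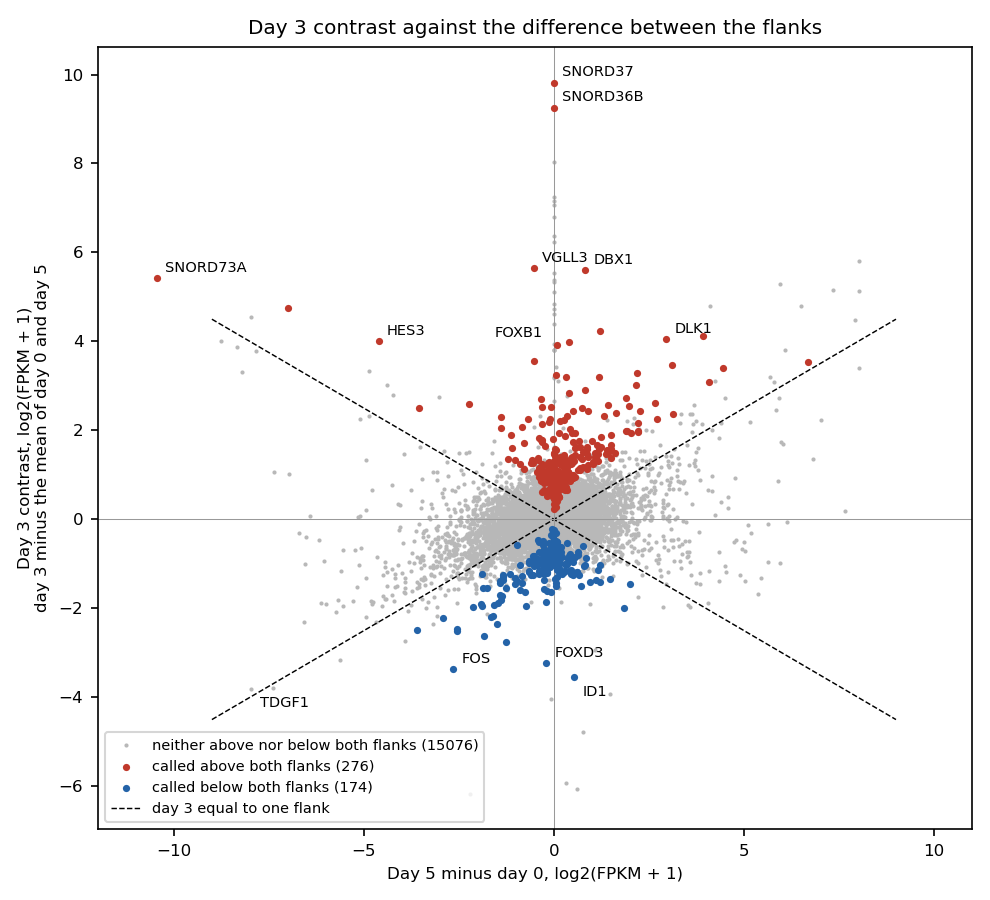
Day 3 contrast against the difference between day 5 and day 0, both in log2(FPKM + 1), for genes tested in both steps, with the genes of the Y chromosome left out. On the dashed lines day 3 equals a flanking stage, so red genes (above both, 276) lie in the upper sector and blue genes (below both, 174 of the 175) in the lower one. FOXB1, FOXD3 and ID1 lie near the vertical line where the flanking stages are equal, and TDGF1 lies close to a dashed line.

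Some of the called genes were close neighbours. Within 100 kb of each other lay 14 pairs of genes above both stages, 2 of them overlapping, and 6 pairs below both. The same count was not made over all tested genes. Whether called genes lay closer together than tested genes in general is therefore unknown. Besides CYP26C1 with CYP26A1 and DLK1 with MEG3, HES3 lay 1767 bases from GPR153 (4.52, 19.7 and 9.14), a G protein-coupled receptor. IRX2 lay 492 bases from C5orf38 (9.003, 54.9 and 11.6). On the low side CRIM1 lay 656 bases from LOC100288911 (9.09, 2.16 and 8.53). Whether counting used strand is not given in the sources used here, so reads of genes that lie this close could not be separated with certainty, and 48 of the 276 and 16 of the 175 genes share a locus entry with another gene.

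The most extreme contrasts of all belonged to small RNA genes, which a poly-A library does not measure well and whose FPKM can rest on few fragments. Of 1641 such genes 278 were tested, 6 were called above both stages and none below. They made up 48 of the 50 highest and 42 of the 50 lowest contrasts at an FPKM of at least 5. SNORD37 was listed at 0, 902 and 0 and SNORD36B at 0, 609 and 0, while SNORD73A stood at 1400 and 1601 before a listed 0. All 6 called ones were listed at 0 on day 0 or day 5, share their locus with another gene and lost their call under the normal p, so no fold is given. Without small RNA genes 270 genes were above both stages.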

How the data were processed

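TopHat2 2.0.10, another TopHat entry with no version, Cuffdiff 2.1.1 and hg19 are listed in the submitters' processing notes. Annotation, strandedness and read length were not stated in those notes or the labels. Per the file headers, the authors deposited 1 Cuffdiff table of 69852 rows, 3 comparisons of 23284 genes, with 1 FPKM value per gene and group, both libraries combined. The authors' deposited test statistic served here as a score. The q-value of each row, like its p-value, was deposited by the authors.

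From these values the day 3 contrast (pseudocount 1, which understates changes of weakly expressed genes), the calls and the implied standard errors were computed in Python 3.11.15 with pandas 2.3.3, numpy 2.4.6 and scipy 1.17.1. The scripts were tested on simulated data. The error of the contrast was derived from the test statistics of all 3 comparisons. It is a description, since implied errors and deposited q do not always match.

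The contrast, the 38 gene lists and the motifs were chosen with earlier results of these data known. Named genes were FOXB1, the 15 highest and lowest called contrasts at an FPKM of at least 5, the 8 highest and lowest contrasts not called in both steps (all small RNA genes), up to 4 members of each list, members that make a count clear, and called genes within 100 kb of each other. Genes named outside this rule, the 8 added families and the DR5 and CArG motifs were chosen after the values were seen. Of the called genes 1 on the Y chromosome is not reported here. Some genes, such as FST, FGF8, BAMBI and T, count in more than 1 list. Results for a few genes are not reported here. Promoter sequences are from RefSeq (GRCh38.p14) and matched 202 of the 276 genes above (73.2%) and 133 of the 175 below (76.0%). A comparison of motif shares between gene sets is void because under 80% had a sequence. TGACGTCA and TGTTTAC were searched too, found in 1.98% and 3.41% of promoters, and are shown for no gene.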

Additional observations from a re-analysis of the deposited data

How the results depend on the processing

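With a q threshold of 0.01 in place of 0.05, 164 genes were above both stages (276 in the report) and 84 below (175). With p recomputed from the test statistic under a normal distribution the counts were 197 and 83, of which 148 and 71 were shared with the report's genes. A single z for the contrast, from the implied errors, gave 391 and 248, of which 203 and 118 were shared. This z needs a test in all 3 comparisons, and a gene without one counts as not called. Of the 276 genes above both stages, 253 were tested between day 0 and day 5. Other alternatives moved neither count by over 1.5 times: at least 2-fold in both steps (209 and 146), an FPKM of at least 1 (251 and 155), and no shared, merged or haplotype loci (228 and 157). Leaving out small RNA genes, an alternative chosen after seeing the data, gave 270 and 175. Among genes above both stages, those higher on day 5 than on day 0 numbered 67 in the report, 31 at the stricter q and 145 by z, and those lower 16, 7 and 44. Among genes below both, those higher on day 5 numbered 15, 5 at the stricter q, 4 by the normal p and 30 by z, and those lower 39, 21, 25 and 120.

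Measured against the nearer flanking stage, 7 list medians of at least 0.1 in size changed sign: WNT targets to -0.1379, BMP ligands and receptors to 0.06396, epithelial genes to 0.5983, metallothioneins to 0.98, and the markers of endothelium, gut endoderm and trophoblast to 0.324, -0.0447 and 0.4626. With members at an FPKM of at least 1 the mesendoderm median became -0.07792. The other list medians of at least 0.1 in size kept their sign under every alternative run. Medians under 0.1 in size changed sign for 4 lists against the nearer stage (mesenchymal genes to -0.1158, serine and one-carbon enzymes to 0.1189, p53 targets and housekeeping genes), 3 with members at an FPKM of at least 1 (among them placode genes to -0.3495 and neural plate border genes to -0.1857), 6 with a pseudocount of 5 (among them WNT ligands to -0.2014), 10 with scaling to 1 sum and 5 with centring. The contrasts of 103 called named genes kept their sign under scaling to 1 sum and centring. Under pseudocounts of 0.1 and 5 and against the nearer stage the call itself fixed the sign, so it could not change. Their size moved by over 0.1 for 84 genes with a pseudocount of 0.1 and for 95 with 5. It did so for 84 against the nearer stage and for 37 with scaling. Scaling moved the median of all genes from 0.05 to -0.05. The cause of these changes was not tested.

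No paired analysis was possible because the table holds 1 value per group and none per library. For the same reason leaving out each replicate was not run.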

Other observations

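Further called genes, picked after their values were seen, stood apart on day 3. CBLN1, a secreted synaptic organiser of the cerebellum, was above both stages at 2.08, 10.6 and 0.917 (FPKM on day 0, day 3 and day 5). PCDH8, a protocadherin, stood at 0.352, 12.3 and 2.65, and the transcriptional coactivator MN1 at 1.49, 31.1 and 8.30. STOML3 (0.0493, 4.42 and 0.260) and the axonemal dynein gene DNAH9 (0.102, 4.38 and 0.220) were under an FPKM of 1 at both flanking stages. The call of STOML3 was lost with a q threshold of 0.01. DNAH9 was not called by a single z for the contrast, which could not be computed for every called gene.

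Secreted and surface proteins were among the genes below both stages. IGFBP2, which binds insulin-like growth factors and was the most abundant of those named here, stood at 1120, 315 and 551. The galectin LGALS1 stood at 32.5, 12.2 and 26.2, GAS6, a ligand of the AXL receptor family, at 20.05, 9.53 and 27.8, and the plasminogen activator PLAU at 13.9, 6.19 and 16.9. FURIN, a protease that matures growth factors, stood at 9.60, 2.25 and 4.90. The cell cycle kinase CDK6 stood at 2.77, 0.715 and 5.14. The calls of IGFBP2 and LGALS1 were lost with a q threshold of 0.01, and that of PLAU under the normal p. LGALS1, GAS6 and PLAU were not called different between day 0 and day 5, and CDK6 was the only 1 of these 6 genes to end higher than it began by a call.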
